A study of Mus musculus with 2 samples.

Results

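Internal exons of 21 to 30 nt are among the shortest pieces that spliceosomes join, and 252 of them could be measured in long reads of mouse gastrocnemius. They were taken as annotated exons of that length, neither first nor last in their transcript, that were spanned by at least 20 reads in each library. A read spans an exon if its transcript model holds the exon with both exact ends (an included read) or has an intron that covers it (a skipping read). Inclusion is included reads as a percentage of included plus skipping reads. The 252 exons are 13.1% of the 1920 annotated exons of that length and belong to 216 genes. In all, 32392 internal exons of any length, of 212963 annotated, passed the same minimum. The exons were chosen by reads that also give inclusion, so inclusion is given below as a description and was not tested.

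Gastrocnemius, a calf muscle, was taken from male B6CASTF1/J mice, first-generation offspring of a cross between C57BL/6J and CAST/EiJ mice, at 2 months of age. The 2 libraries form 1 group, with no treatment or genotype set against another. Their labels give 1 donor identifier and different numbers for the males, so the spread between them may be partly technical. The RNA came from whole tissue.

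Exons this short are often called microexons. An exon is normally recognised as a unit, with splicing factors bound at both of its ends, and a very short exon leaves little room for them to sit side by side. Many microexons are therefore held by regulatory sequences in the introns around them, and a set of them is known to be switched on in neurons by the splicing factor Srrm4. Striated muscle is also known for short alternative exons, including those of the Mef2 transcription factors, and for short exons of its contractile genes that are always used.

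The sequences that the results turn on are given in mm10, read from the annotated transcripts, 5′ to 3′ on the gene's strand. Capitals mark the exon, and lower case marks up to 12 bases of the neighbouring exons in the spliced transcript. Both Myl1 exons are shown with the exon that follows, since they join the same one. The 25-nt exon lies at chr1:66934518-66934542 and the 28-nt exon at chr1:66934246-66934273, both on the minus strand.
Myl1 25 nt: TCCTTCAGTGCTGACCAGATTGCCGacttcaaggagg
Myl1 28 nt: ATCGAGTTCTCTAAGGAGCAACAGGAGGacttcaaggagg

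The 28-nt exons of 4 myosin heavy chain genes are shown because they resemble one another and were kept in nearly every read. Between genes, 22 to 25 of their 28 positions have the same letter. They lie at chr11:67242141-67242168 (Myh4), chr11:67203576-67203603 (Myh1) and chr11:67176144-67176171 (Myh2), all on the plus strand, and at chr14:54991716-54991743 (Myh7) on the minus strand.
Myh4: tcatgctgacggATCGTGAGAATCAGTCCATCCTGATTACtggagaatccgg
Myh1: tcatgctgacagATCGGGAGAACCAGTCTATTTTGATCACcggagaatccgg
Myh2: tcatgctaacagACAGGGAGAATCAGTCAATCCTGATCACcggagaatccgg
Myh7: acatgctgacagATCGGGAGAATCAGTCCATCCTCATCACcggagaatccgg

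The homologous exons of the Mef2 genes are shown because they parted widely in inclusion. They lie at chr3:88161781-88161801 on the plus strand (Mef2d), chr7:67244521-67244544 on the minus strand (Mef2a) and chr13:83654598-83654621 on the plus strand (Mef2c).
Mef2d: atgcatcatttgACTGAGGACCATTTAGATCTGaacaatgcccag
Mef2a: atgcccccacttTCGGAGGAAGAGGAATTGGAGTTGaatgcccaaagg
Mef2c: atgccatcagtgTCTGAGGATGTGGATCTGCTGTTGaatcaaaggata

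Exon 24 of Trdn, which many reads skipped, is shown with exon 25, which reads kept. The exons lie on the plus strand at chr10:33433701-33433730 and chr10:33437718-33437747 and begin with the same 8 letters, AGCCACAA.
Trdn exon 24: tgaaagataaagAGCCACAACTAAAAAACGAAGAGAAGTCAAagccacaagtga
Trdn exon 25: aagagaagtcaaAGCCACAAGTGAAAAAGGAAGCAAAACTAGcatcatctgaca

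Both Dctn1 exons of 21 nt are shown because their inclusion differed widely within the gene. They lie on the plus strand at chr6:83187764-83187784 and chr6:83183936-83183956.
Dctn1, downstream exon: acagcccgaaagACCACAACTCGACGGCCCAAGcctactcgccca
Dctn1, upstream exon: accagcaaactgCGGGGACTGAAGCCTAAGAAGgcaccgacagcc

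An exon of Car14 and an exon of Gramd1a are shown because every annotated transcript that spans them has them. Almost no read held either exon with its exact ends. They lie on the minus strand at chr3:95898977-95898997 and chr7:31143547-31143567.
Car14: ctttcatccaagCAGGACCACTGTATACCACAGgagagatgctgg
Gramd1a: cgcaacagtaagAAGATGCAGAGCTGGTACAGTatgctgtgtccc

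The Selenow exon, at chr7:15920449-15920473 on the minus strand, is shown because it carries the TGA codon that is read as selenocysteine in selenoprotein W.
Selenow: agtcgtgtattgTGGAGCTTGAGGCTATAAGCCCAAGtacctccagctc

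The libraries held 1132759 endogenous reads (replicate 1) and 1449423 (replicate 2), and the 252 exons were spanned by a median of 55 and 86 reads. Skeletal muscle markers were abundant: 8 of 8 genes had reads in both libraries, with 365394 reads in replicate 1 and 425160 in replicate 2. Of 10 neuron genes, 7 had no read in either library, Srrm4 among them, and the list summed to 5 reads in each. Among 17 splicing factor genes, 13 had reads in both libraries and 3 had none in either, Srrm4 again among them. Mbnl2 had 211 reads in replicate 1 and 387 in replicate 2. Others detected included Mbnl1 (128 and 206), Qk (120 and 397), Celf2 (82 and 45) and Rbfox1 (69 and 34). Of 4 cardiac genes, 3 had no read. Genes of other cells summed to 417 and 672 reads (fibroblast and tendon), 151 and 125 (erythroid), 102 and 144 (Schwann cell), 17 and 44 (endothelium) and 0 and 3 (leukocyte).

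Most exons of 21 to 30 nt were kept by nearly all reads, but a larger part of them was skipped than of longer exons. Their median inclusion was 98.2% in replicate 1 and 98.5% in replicate 2, against 100% in both for all internal exons measured. A mean inclusion over 90% was found for 165 of the 252 (65.5%), where 93% of all internal exons measured reached it. The middle range of 10 to 90% held 34 (13.5%), against a background of 2.4%. The remaining 53 (21%) were under 10%, against a background of 4.57%. In all, 63 exons were included in under 50% of reads (background 5.55%) and 87 in under 90% (background 6.96%). Every spanning read held the exon for 60 of the 252 (23.8%), against a background of 75.1%, and no read held it for 38 (15.1%), against 2.76%. In whole tissue, a middle value in all cells and a mixture of fibres or other cells that keep and skip an exon cannot be told apart.

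**Figure D1:**
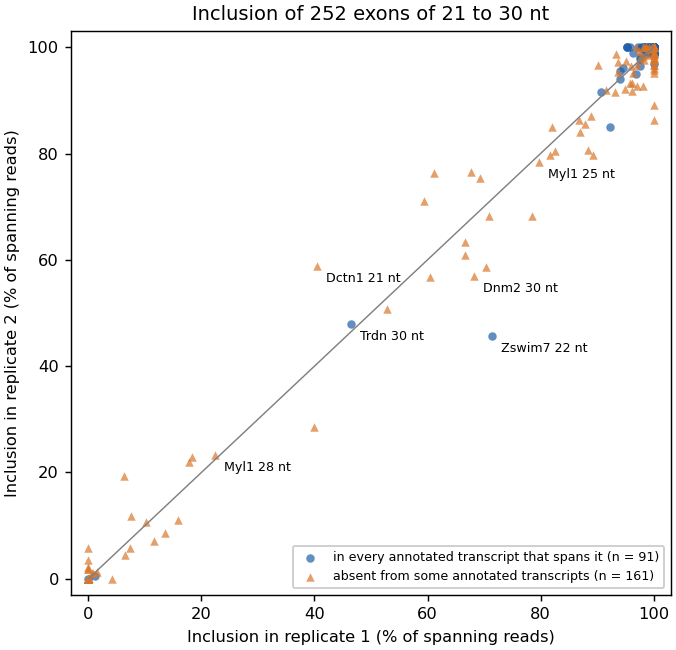
Inclusion (% of spanning reads) of the 252 exons of 21 to 30 nt in replicate 1 (x axis) and replicate 2 (y axis). Circles are the 91 exons in every annotated transcript that spans them, triangles the 161 that some annotated transcripts lack, and the line marks equal values. Points gather at both ends, and the 34 exons in the middle range lie along the line with Zswim7 and Dctn1 farthest from it.

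Inclusion was higher in longer exons and lower in shorter ones. Exons of 31 to 50 nt (1362 exons) were over 90% in 84.1%, in the middle range in 6.98% and under 10% in 8.96%. Of them, 12.3% were under 50% and 15.9% under 90%. The 120 exons of up to 20 nt had a median of 0%, and 108 of them were under 50%. Some annotated transcripts lack 102 of the 120, and 74.6% (replicate 1) and 62.0% (replicate 2) of reads skipping these used an unannotated splice site. For the other 18 the shares were 96.7% and 98.2%. At 21 to 30 nt the shares were 4.89% and 5.75% for exons that some annotated transcripts lack, and 78.9% and 66.9% for the rest. How far such junctions lowered the values at up to 20 nt was not tested. At the edges of the range, 28 exons of 21 nt had a median of 6.86%, against 0.528% for 10 exons of 20 nt, and 47 exons of 30 nt had a median of 99.2%, against 100% for 32 exons of 31 nt. With a lesser library of exactly 20 reads, 7 exons entered with a median of 100%, and 8 exons with 19 reads, which were left out, had a median of 76.3%.

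Inclusion differed with annotation. The 91 exons found in every annotated transcript that spans them, called constitutive here, had a median of 99.7% in replicate 1 and 99.9% in replicate 2, with 3 under 50% and 5 under 90%. A read assigned to an annotated transcript cannot skip such an exon by this definition, so the difference from other exons is partly fixed in advance. The 161 exons that some annotated transcripts lack had medians of 88.9% and 86.4%, and 82 of them (50.9%) were under 90%. Of all measured internal exons that some annotated transcripts lack, 15.7% were under 90%, and at 31 to 50 nt 28.7% were. For all constitutive internal exons measured, 0.0975% were under 50% and 0.336% under 90%. Constitutive exons of 31 to 50 nt had 0 and 2 of 613. Among constitutive exons of up to 20 nt, 11 of 18 were under 50%. The 3 constitutive exons of 21 to 30 nt under 50% were those of Gramd1a, Car14 and Trdn, and the other 2 under 90% were in Zswim7 and Ythdf3. Of the 53 exons under 10%, 38 are held by a single annotated transcript, as are 36 of the 165 over 90%.

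**Figure D2:**
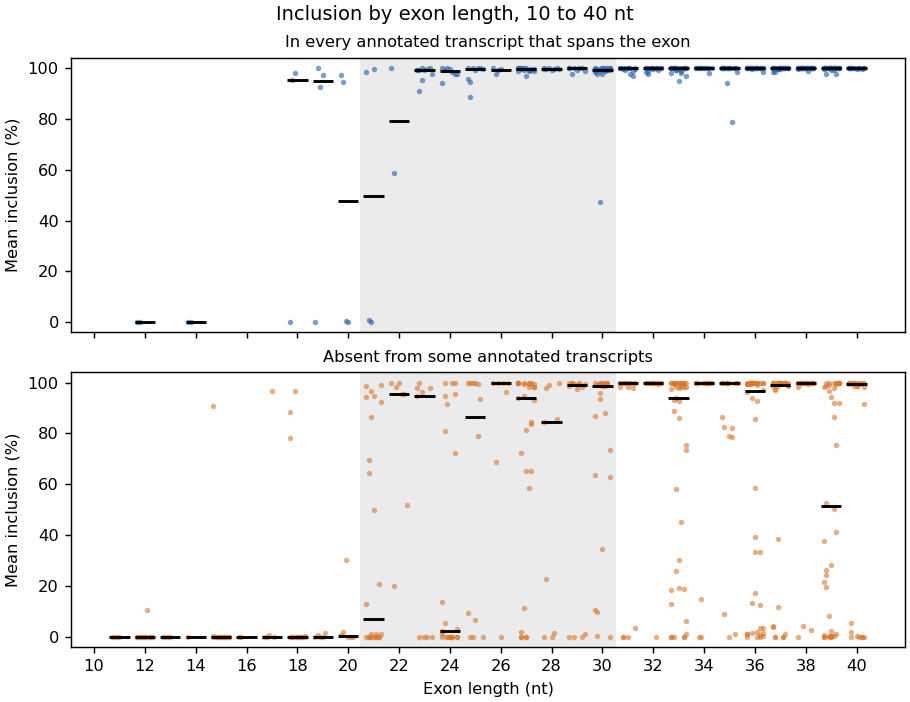
Mean inclusion of the 2 libraries (%, y axis) of each annotated internal exon of 10 to 40 nt by length (nt, x axis), for constitutive exons (top) and exons that some annotated transcripts lack (bottom). Black bars are medians and the grey band marks 21 to 30 nt. In the top panel points lie above 90% from 23 nt upward except for 1 exon each of 25, 30 and 35 nt, while in the bottom panel exons at 0% and at 100% stand side by side at most lengths.

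Within the range, exons of 21 and 24 nt were skipped most often. Among exons that some annotated transcripts lack, the median was 6.86% at 21 nt (24 exons) and 2.08% at 24 nt (23 exons), against 94.0% at 27 nt (29 exons) and 98.5% at 30 nt (25 exons). Constitutive exons of 21 nt had a median of 49.7%, but there were 4 of them. The medians at 23 nt and above were between 98.9% and 100%.

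Thick filament genes supplied 59.7% of all reads over the 252 exons, from 14 exons in 11 genes. Of the 14, 10 were over 90%, 2 in the middle range and 2 under 10%, against 165, 34 and 53 of all 252. The myosin heavy chains are the motors of the thick filament, and their 28-nt exon precedes the codons of the loop that holds the phosphates of ATP. In Myh4, the chain of type IIB fibres, it was included in 8603 reads and skipped in 51 in replicate 1, and included in 15571 and skipped in 33 in replicate 2 (99.4% and 99.8%). Myh1, the chain of type IIX fibres, had 1022 included and 1 skipping read in replicate 1, and 4495 and 21 in replicate 2. Myh2, the type IIA gene, had 99.2% and 99.6%, and Myh7, the slow gene, had 100% and 99.9%. Scored on models of its own gene, the exon is therefore near 100% in all 4 genes and in both libraries. With models of any gene on the strand the mean was 93.7% in Myh2 and 97.0% in Myh1. Between Myh4 and Myh7 its letters are the same at 25 of 28 positions, and between Myh1 and Myh2 at 22. The non-muscle gene Myh14 kept its version of the exon in 27 of 27 and 70 of 70 reads, while its 24-nt exon was in 0 of 27 and 4 of 70.

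Other thick filament exons were used as fully. The 30-nt exon of Mybpc2, the fast isoform of myosin-binding protein C, was included in 6622 and 6754 reads and skipped in 8 and 12. The 23-nt exon of Myom2, which encodes an M-band protein that links thick filaments, was at 99.6% and 99.4%. Myom1, its relative, has a pair of 23-nt exons: the one at chr17:71121126-71121148 was in 98.3% and 97.7% of reads, and the one at chr17:71120794-71120816 was in none of 522 and 818. A count of 0 there allows inclusion of up to 0.575% and 0.367%. The 28-nt exon of the slow light chain gene Myl3 was at 99.7% and 99.9%, and that of the light chain gene Myl6 at 98.2% and 100%.

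The Myl1 exons took a middle value and replaced one another. Myl1 makes both essential light chains of fast muscle from separate starts, MLC1f from the distal one and MLC3f from the one inside the gene. The 25-nt exon follows the internal start, and was included in 10692 reads and skipped in 2716 in replicate 1, and included in 8212 and skipped in 2266 in replicate 2 (79.7% and 78.4%). The 28-nt exon follows the distal start, and had 3069 included and 10683 skipping reads in replicate 1 (22.3%), and 2506 and 8256 in replicate 2 (23.3%). Of 13400 reads in replicate 1 that spanned both, 10150 held the 25-nt exon alone, 2533 the 28-nt exon alone, 534 both and 183 neither. In replicate 2 the counts were 7784, 2085, 420 and 181 of 10470. The 25-nt exon alone was thus the most frequent form in both libraries, and reads with both exons made up 3.99% and 4.01%.

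Thin filament and Z-disc genes held 4 exons each. The 30-nt exon of Tnni2, the fast inhibitory troponin, was included in 4119 and 2529 reads and skipped in 2 and 2, and 1458 and 1207 further reads overlapped it with other ends and were not scored. Its slow counterpart Tnni1 kept its 30-nt exon in 120 of 120 reads and in 374 of 378. Tnnt1, the slow troponin that binds tropomyosin, has a 27-nt exon at 97.7% and 96.4%. Its 22-nt exon was included in 48 reads and skipped in 43 in replicate 1 (52.7%, with a Wilson 95% interval, for counting error only, of 42.6 to 62.7), and was skipped in 98 in replicate 2 (inclusion 50.8%, 43.9 to 57.6). In 129 of the reads that skipped it, the next exon began 8 nt earlier. The 24-nt exon of the filamin gene Flnc was in 52 of 52 and 72 of 73 reads (100% and 98.6%). The 26-nt exon of the Z-disc gene Pdlim5 was in none of 233 and 289 reads.

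Trdn encodes triadin, which anchors the calcium release machinery in the sarcoplasmic reticulum, and it held 10 of the 252 exons, more than any other gene. All 10 are constitutive by annotation. The highest, exon 30, was in 124 of 124 and 315 of 315 reads, and 8 of the 10 were at 97.6% or more in both libraries. Exon 33 was at 94.1% in each. Exon 24 stood apart, with 58 included and 67 skipping reads in replicate 1 (46.4%, Wilson interval 37.9 to 55.1) and 152 and 165 in replicate 2 (47.9%, 42.5 to 53.4). All skipping reads in replicate 1, and 164 of 165 in replicate 2, joined annotated splice sites. Reads that skipped exon 24 still held exon 14: of reads over exons 14 and 24, 64 of 120 and 161 of 311 held exon 14 alone. Exons 24 and 25 have the same letter at 21 of 30 positions, and whether their likeness affected the placement of reads was not tested.

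**Figure D3:**
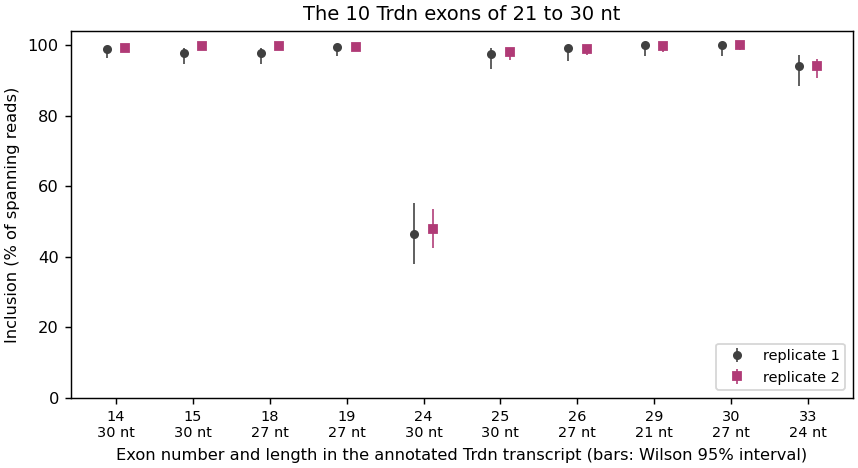
Inclusion (% of spanning reads, y axis) of the 10 Trdn exons of 21 to 30 nt in transcript order, with exon number and length on the x axis. Circles are replicate 1, squares replicate 2 and bars Wilson 95% intervals, which cover counting error only. Exon 24 is at 46.4% and 47.9%, and the other 9 are at 94.1% or above.

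The other calcium and excitation genes held 6 exons. Calcineurin is the phosphatase that calcium and calmodulin switch on, and the genes of its catalytic subunits each carry a 30-nt exon near the 3′ end. Ppp3ca included it in 225 reads and skipped it in 28 in replicate 1 (88.9%), and in 290 and 43 in replicate 2 (87.1%). Ppp3cb, whose exon has the same letter at 26 of 30 positions, was at 98.7% and 100%. Ppp3cc, which is in none of the lists, kept its 30-nt exon in 24 of 24 and 30 of 30 reads. A second, 27-nt exon of Ppp3cc was in 16 of 24 and 19 of 30. In this list, 4 exons had no included read: the 24-nt exon of Bin1, a membrane-bending protein of the T-tubules (746 and 832 reads), both Ryr1 exons of 27 and 30 nt in the calcium release channel gene (124 and 305 reads each), and the 21-nt exon of the calcium channel subunit gene Cacna2d1 (23 and 47 reads). A count of 0 in 746 and 832 reads allows up to 0.402% and 0.361%.

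The Mef2 genes encode transcription factors of muscle differentiation, and their short exon is the one known as β, which adds an acidic stretch to the protein. The 21-nt exon of Mef2d was included in 86 reads and skipped in 13 in replicate 1 (86.9%), and in 133 and 21 in replicate 2 (86.4%). The 24-nt exon of Mef2a was included in 54 of 59 and 79 of 86 reads (91.5% and 91.9%). The 24-nt exon of Mef2c was in 0 of 116 and 0 of 173, which allows up to 2.59% and 1.73%, and its skipping reads all joined annotated sites. The libraries thus gave nearly the same value for each gene, and Mef2c stood apart from Mef2d and Mef2a. With annotated transcripts only, the mean for Mef2a was 82.3%, against 91.7% in the main scoring. The Mef2a and Mef2c exons share 17 of 24 letters. In Mef2d, 23 of the skipping reads had the upstream exon longer by 6 nt and the downstream exon by 17 nt. Those with annotated sites numbered 3 and 6, and counting them alone as skipping gave a mean of 96.2%. The 24-nt exon of the splicing factor gene Hnrnpa2b1, in the same list, was in 0 of 35 and 0 of 27 reads.

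Genes of trafficking and adhesion that are known for very short exons held 9 of the exons. Of the 9, 3 were over 90%, 4 in the middle range and 2 under 10%, against 165, 34 and 53 of all 252. The genes were listed because of such exons, so these counts are not those of an unselected set. Dctn1 encodes the large dynactin subunit, which tethers the dynein motor to microtubules, and its 21-nt exons lie in the stretch for the basic region that touches microtubules. The downstream one was included in 109 reads and skipped in 160 in replicate 1 (40.5%, Wilson interval 34.8 to 46.5), and included in 273 and skipped in 191 in replicate 2 (58.8%, 54.3 to 63.2). The upstream one was in 2 of 268 and 5 of 464 reads. Of 268 and 464 reads over both, 107 and 268 held the downstream exon alone and 159 and 191 held neither. No read assigned to an annotated transcript held the downstream exon, and with such reads alone its inclusion was 0%. The 30-nt exon of Dnm2, a membrane-cutting GTPase, was at 68.3% and 57.0%. Golga4, a tether of the Golgi, kept its 21-nt exon in 99.1% and 98.6%. The lipid phosphatase gene Mtmr1 has exons of 24 and 27 nt with mean inclusions of 95.7% and 94.0%. Of reads over both, 24 of 26 and 56 of 61 held both. Eif4g1, the translation initiation scaffold, had its 21-nt exon in none of 61 and 151 reads. None of the 52 energy metabolism genes in the working list had an exon among the 252. That list does not hold every such gene: exons of Uqcrh (21 nt, mean 96.9%) and Atp5mpl (24 nt, 99.9%) are among the 252.

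The remaining 201 exons lie in genes of no list, 136 of them over 90%, 23 in the middle range and 42 under 10%. They make up most of the 252, for which the counts were 165, 34 and 53. The 25-nt exon of Selenow, the gene of a small redox protein, was included in 2356 and 2108 reads and skipped in 7 and 11. The 25-nt exon of Bsg, which encodes a chaperone of lactate transporters, was at 94.1% and 95.4%. Rpl41, the gene of a very small ribosomal protein, has exons of 23 and 25 nt that were both held by 506 of 508 and 671 of 671 reads. The muscle-specific ubiquitin ligase genes Trim54, Trim55 and Trim63 each have a 23-nt exon. It was at 99.7% and 99.0% in Trim54, at 90.8% and 91.6% in Trim55 and at 94.5% and 96.1% in Trim63. Dysf, the membrane repair gene dysferlin, kept both of its 30-nt exons in 35 of 35 reads in each library.

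Of the genes in no list, several signalling and trafficking genes had middle values. Rilpl1, an adaptor of Rab GTPases, had its 24-nt exon in 255 of 312 reads in replicate 1 (81.7%) and in 299 of 375 in replicate 2 (79.7%). The 30-nt exon of the kinase gene Mapk12 was at 87.9% and 85.5% (a mean of 100% with annotated transcripts only), and the 27-nt exon of Mia2, which acts in protein export from the endoplasmic reticulum, was at 82.0% and 85.1%. The 24-nt exon of Nrbp1, a pseudokinase gene, was at 15.8% and 11.1%. The 21-nt exon of the kinase gene Mast2 was at 70.3% (Wilson interval 58.2 to 80.1) and 58.6% (50.5 to 66.3), over 10 points apart. For each of these exons the Wilson intervals of the libraries overlapped.

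**Figure D4:**
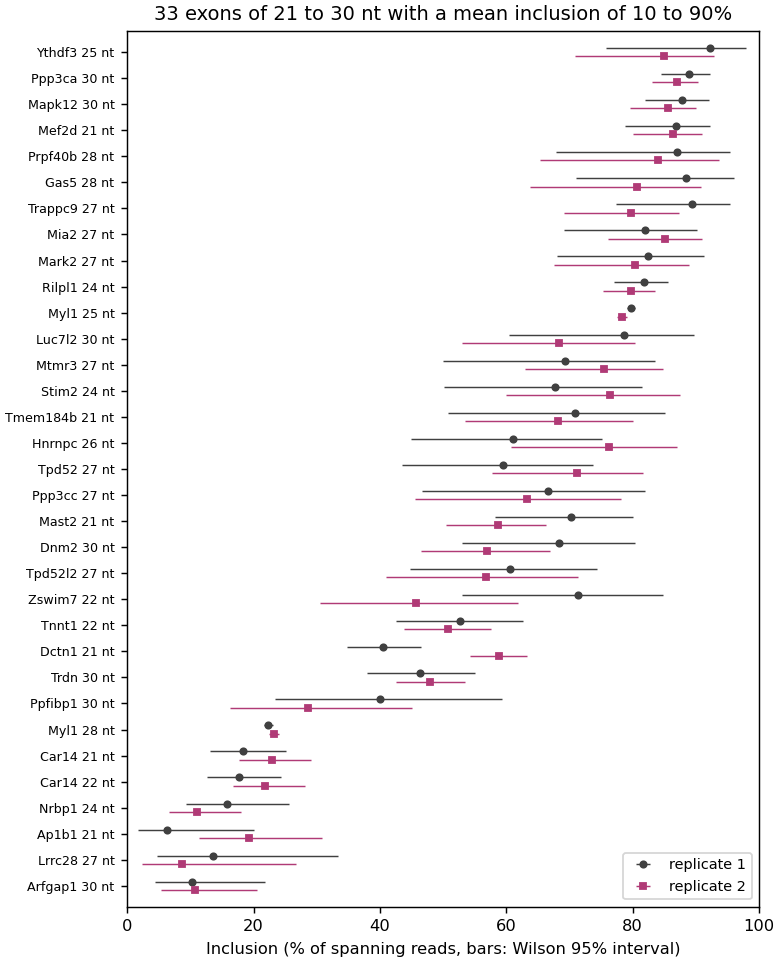
Inclusion (% of spanning reads, x axis) of 33 of the 34 exons with a mean inclusion of 10 to 90%, one per row, ordered by mean. Circles are replicate 1, squares replicate 2 and bars Wilson 95% intervals. The Myl1 intervals are narrower than the symbols because of their depth, and the intervals of the libraries overlap in all rows but that of Dctn1.

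The libraries gave similar values. The gap between them was over 10 percentage points in 11 of the 252 exons (4.37%, background 0.796%), 4 higher in replicate 2 (background 0.377%) and 7 lower (background 0.42%), with a median gap of 0.418 points. Gaps went with the middle range: 9 of the 11 were among its 34 exons (26.5%), and 212 of the 776 internal exons of any length in that range (27.3%) were as far apart. The widest was the 22-nt exon of Zswim7, a DNA repair gene, with 20 of 28 reads in replicate 1 and 16 of 35 in replicate 2 (71.4% and 45.7%), and its intervals of 52.9 to 84.7 and 30.5 to 61.8 overlapped. Then came Dctn1, the RNA-binding protein gene Hnrnpc (26 nt, 61.1% and 76.3%), the splicing factor gene Prpf18 (27 nt, 100% and 86.4%) and Ap1b1, a clathrin adaptor gene (21 nt, 6.25% and 19.4%). Intervals lay apart in 2 exons, the downstream one of Dctn1 and that of Myh4, where the gap was under 1 point (background 0.179% of all internal exons).

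Annotated coding exons made up 229 of the 252 (90.9%), 9 were partly coding and 14 non-coding. The coding share was similar in longer exons, 89.1% at 31 to 50 nt and 92.8% at 51 to 100 nt. Of the 53 exons under 10%, 11 were non-coding, against 1 of the 165 over 90%. An exon whose length is a multiple of 3 can be skipped without shifting the reading frame, and 4 of the 10 lengths in the range are multiples of 3. In the middle range 25 of 32 coding exons were multiples of 3 (78.1%, Wilson interval 61.2 to 89.0), and under 10% it was 28 of 39 (71.8%, 56.2 to 83.5). Over 90% it was 85 of 158 (53.8%, 46.0 to 61.4). The same order was seen at 31 to 50 nt, with 51 of 63 (81.0%) in the middle range and 412 of 1098 (37.5%) over 90%. Over 90%, the share for exons of 21 to 30 nt was thus above that of the longer classes, which were all between 37.5% and 41.6%. Median GC content was 46.1%, against 47.9% at 31 to 50 nt and 49.4% at 51 to 100 nt. It hardly varied with inclusion, with 45.8% under 10%, 47.1% in the middle range and 45.5% over 90%.

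**Figure D5:**
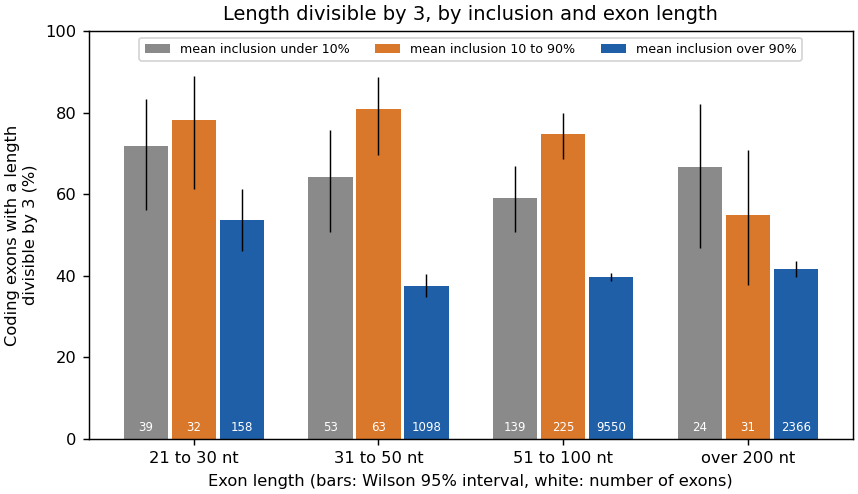
Share of coding exons whose length is a multiple of 3 (%, y axis) by exon length (x axis) and mean inclusion (grey under 10%, orange 10 to 90%, blue over 90%). Error bars are Wilson 95% intervals and white figures the number of exons. In each length class the orange bar is above the blue bar, 78.1% against 53.8% at 21 to 30 nt.

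Many reads that skipped a constitutive exon of 21 to 30 nt used a splice site that is not annotated, and a few exons supplied most of them. For the 91 exons, 386 of 489 skipping reads in replicate 1 (78.9%) and 460 of 688 in replicate 2 (66.9%) had such a junction. In 82.4% and 84.1% of those reads the adjoining exons ran past their usual ends by up to 33 nt, summed over both sides. In 17.1% and 17.8% the sum was the length of the skipped exon to within 3 nt. For the 161 other exons, 4.89% and 5.75% of skipping reads had an unannotated site. Skipping reads of constitutive exons were 1.69% and 1.41% of spanning reads at 21 to 30 nt, against 0.181% and 0.228% at 31 to 50 nt and 0.107% and 0.102% at 51 to 100 nt. Up to 20 nt they were 99.6% and 99.2%, and 96.7% and 98.2% of them had an unannotated site. The 18-nt exon of Atp2a1, which no read held, supplied 95.0% and 96.3% of the spanning reads of that class, and in the other 17 exons 92.8% and 78.0% of reads skipped. The exons of Car14, Bsg, Gramd1a and Myh4 had the most reads with an unannotated site, 305 of the 386 and 342 of the 460. Without these 4, chosen after their values were seen, the other 87 had 81 such reads of 181 that skipped in replicate 1 and 118 of 346 in replicate 2, and skipping reads were 0.950% and 1.09% of spanning reads. Whether the bases of a short exon were placed beside its neighbour in such reads was not tested.

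Car14 encodes a carbonic anhydrase on the cell surface. Its constitutive 21-nt exon 9 was included in 2 reads and skipped in 158 in replicate 1, and included in 1 and skipped in 203 in replicate 2. All skipping reads had an unannotated junction, and in 359 of them the downstream exon was longer by 25 nt. The 21-nt exon of Gramd1a, which encodes a sterol transfer protein, was in 0 of 36 and 0 of 48 reads, and in all 84 the upstream exon was longer by 16 nt. In Bsg, 62 of 63 and 58 of 58 skipping reads had an unannotated junction, and in 108 the downstream exon was longer by 28 nt. Further upstream, the 21-nt and 22-nt exons of Car14 were at 18.4% and 22.9% and at 17.7% and 21.9%. They were kept together in 28 of 158 and 43 of 201 reads and left out together in 129 and 154. Almost all reads that left them out also had an unannotated junction, and counting annotated junctions alone gave means of 95.3% and 90.6%.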

How the data were processed

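Long-read RNA sequencing of 2 gastrocnemius libraries was re-analysed from raw read counts per transcript model. The authors aligned reads to mm10, per the deposited notes, and TALON assigned each read to a GENCODE M21 transcript or an unannotated model, 1 library at a time, per the file headers. Which aligner was used is not given in the sources used here. The count columns hold whole reads and were used as deposited, with no normalisation. Start and end positions are those of the deposited models. Spike-in reads were left out, as were models of the class Genomic, which match no splice junctions of their gene.

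Included and skipping reads were summed over models of the exon's own gene in Python 3.11.15 with pandas 2.3.3 and numpy 2.4.6. A skipping junction was called unannotated if either end is no annotated splice site of the gene. Adjoining exons were called extended if they ran past their usual ends by up to 33 nt, summed over both sides. Shares have Wilson 95% intervals. Reads have no molecular identifiers, so intervals, and limits from 0 reads (3 counts of the total), cover counting error only. With 1 group and n = 2 no test was run. The scoring was checked on simulated reads. Sequences come from the GENCODE M21 transcripts of mm10. Reads of both parental strains were aligned to the one reference, and alleles were not separated.

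The exons and gene lists were chosen with earlier results of these data known. Exons named were the 12 most read, up to 15 of the most read with 10 to 90% inclusion, up to 3 of the most read in each list and the 5 widest gaps. Others named were chosen after their values were seen. Exons on chromosome 18 are given without sequence, and the values of some exons are not reported here. Alternatives were other read minimums, other sets of models, looser exon ends, models of any gene, coding genes alone and each library alone. Annotated skipping junctions alone, and leaving out exons that overlap another annotated exon, were added after seeing the data.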

Additional observations from a re-analysis of the deposited data

How the results depend on the processing

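No paired analysis was possible because the samples form 1 group. The number of exons measured (252) was 139 with a minimum of 50 reads, 147 with annotated transcripts only and 164 without exons that overlap another annotated exon. Exons under 50% (63) numbered 32 with a minimum of 50 reads and 34 with annotated transcripts only, and exons under 90% (87) numbered 40 in both. Exons over 10 points apart (11) numbered 23 with a minimum of 10 reads, 2 with a minimum of 50 and 2 with annotated transcripts only. The median inclusion (98.4%) was 98.9% with a minimum of 50 reads, 98.1% with models of any gene, 99.1% where an overlapping exon counts as included, 99.8% with annotated skipping junctions only and 100% with annotated transcripts only. The constitutive median (99.5%) was 99.8% with a minimum of 10 reads and 100% with annotated skipping junctions only. With annotated transcripts only it is 100% by construction, since each annotated transcript that spans such an exon holds it. The share of skipping reads with an unannotated site (7.15%) is 0% by construction with annotated transcripts only. Without replicate 1 or replicate 2, the number measured was 318 and 257, those under 50% 80 and 65, those under 90% 113 and 88, the median 98.5% and 98.2%, the constitutive median 100% and 99.7%, and the unannotated share 7.58% and 6.59%. Annotated transcripts only took the downstream Dctn1 exon to 0%, Ap1b1 to 0%, Mapk12 to 100% and Mef2a from 91.7% to 82.3%. Models of any gene moved 2 of 39 named exons by over 1 point, Myh2 (99.4% to 93.7%) and Myh1 (99.7% to 97.0%). Few spanning reads limit most exons outside the filament genes, and each library gap rests on 1 library against the other.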

Other observations

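The libraries also hold internal exons of 21 to 30 nt that are not annotated. There were 288 in either library, and 13 had at least 5 reads in each. Of the 13, 9 are multiples of 3. There are 5 that overlap no annotated exon, and 4 of these 5 are multiples of 3.

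Ppp3cb, a calcineurin catalytic subunit gene, held one of 27 nt at chr14:20511474-20511500 on the minus strand, in 62 of 81 reads in replicate 1 (76.5%, Wilson interval 66.2 to 84.4) and in 61 of 92 in replicate 2 (66.3%, 56.2 to 75.1). Its annotated relative in length, the 27-nt exon of Ppp3cc, was at 66.7% and 63.3%. Ccpg1, which acts in the turnover of endoplasmic reticulum, held one of 27 nt at chr9:73007393-73007419 on the plus strand, at 64.5% and 54.6%. Fermt2, the gene of the integrin activator kindlin-2, held one of 21 nt at 76.4% and 80.2% and one of 24 nt at 23.6% and 28.8%. In Myl1 an exon of 28 nt was in 5 and 7 reads, or 0.0360% and 0.0644%. Among those that overlap an annotated exon, Gpcpd1, a phosphodiesterase gene, had one of 21 nt at 94.0% and 83.8%, and Uso1, a Golgi tether gene, one of 21 nt at 92.6% and 91.0%.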
